A study of Homo sapiens with 24 samples.

Results

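Type I interferon-stimulated genes, the genes that cells switch on when interferon alpha or beta binds its receptor, were followed through acquired erlotinib resistance in 4 head and neck squamous cell carcinoma lines. Erlotinib blocks the kinase activity of the EGF receptor. The genes were taken from a list of 48 symbols, which was chosen with earlier results of these data known. All probes annotated to those symbols were used, whichever way each probe moved. Of the 48 genes, 47 had a named probe, with 73 probes of the 47231 on the array. STAT2 is not named in the probe annotation used here and was not analysed here, and DDX58 is carried under its present symbol, RIGI. All 47 passed the filter on dim probes, which asked for detection on at least 3 of the 24 arrays, and none passed through a single group. They stand among 14077 genes tested, each by its brightest probe.

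SCC-25 and Cal-27 are tongue carcinoma lines, FaDu is a pharynx carcinoma line and SQ20B a larynx carcinoma line. Each was measured in 2 states, as sensitive parental cells and as cells derived from them that resist erlotinib, with 3 arrays in each of the 8 groups. All 24 samples, resistant ones included, were given the vehicle, 0.01% DMSO, during the 48 h that preceded RNA isolation. The resistant cells were maintained in medium with erlotinib, and the labels name 1 resistant derivative for each line. Whether erlotinib was still present during the vehicle treatment is not stated. SCC-25 was kept in a mixture with Ham's F12 medium and hydrocortisone, while the other lines were kept in DMEM. Nothing says that the 3 arrays of a group came from separate cultures, so p-values measure the spread between these samples, which may be technical.

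Interferon alpha and beta bind IFNAR1 and IFNAR2 on the cell surface. The receptor's kinases JAK1 and TYK2 then phosphorylate STAT2, which acts with IRF9 in a complex that binds the interferon-stimulated response element in the promoters of its targets. Those targets encode sensors of viral RNA, transcription factors that amplify the response, and effectors that block viral entry, replication or release. In tumour cells many of these genes can be expressed without infection.

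The promoter stretches below show the element upstream of genes to which the results return: ISG15, IFIT1, IFI44L, IFI27 and BST2 among the effectors and strongly changed genes, and DDX60, HERC5 and CXCL10 among those that went against the rest. Genes and stretches were chosen after the values and matches were seen. Capitals mark every match to the core of the element, GAAA followed after 2 bases of any kind by a second GAAA, or to its reverse complement, TTTC, 2 bases and TTTC, and overlapping matches run together. All are RefSeq sequences of GRCh38.p14, 5′ to 3′ on the strand of the gene, and positions count back from the start site.
The ISG15 stretch is chr1:1013347-1013496 (+ strand), bases -150 to -1, with matches that begin at -113 and -107.
ISG15: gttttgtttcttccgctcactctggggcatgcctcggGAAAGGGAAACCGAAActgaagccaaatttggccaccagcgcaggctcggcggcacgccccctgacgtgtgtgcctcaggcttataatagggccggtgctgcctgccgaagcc
The IFIT1 stretch is chr10:89392473-89392622 (+ strand), bases -150 to -1, with matches at -116 and -103.
IFIT1: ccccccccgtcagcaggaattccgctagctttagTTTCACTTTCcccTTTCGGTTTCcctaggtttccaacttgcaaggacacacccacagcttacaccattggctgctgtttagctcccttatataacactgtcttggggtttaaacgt
The IFI44L stretch is chr1:78620268-78620417 (+ strand), bases -180 to -31, with matches at -164 and -73.
IFI44L: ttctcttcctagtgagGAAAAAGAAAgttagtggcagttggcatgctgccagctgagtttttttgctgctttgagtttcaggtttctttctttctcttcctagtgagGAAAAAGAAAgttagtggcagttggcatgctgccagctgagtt
The IFI27 stretch is chr14:94110586-94110735 (+ strand), bases -150 to -1, with matches at -108 and -95.
IFI27: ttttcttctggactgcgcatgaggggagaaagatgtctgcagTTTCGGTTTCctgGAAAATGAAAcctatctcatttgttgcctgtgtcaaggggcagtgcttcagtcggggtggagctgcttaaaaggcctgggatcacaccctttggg
The BST2 stretch is chr19:17405631-17405780 (- strand), bases -150 to -1, with matches at -130 and -124.
BST2: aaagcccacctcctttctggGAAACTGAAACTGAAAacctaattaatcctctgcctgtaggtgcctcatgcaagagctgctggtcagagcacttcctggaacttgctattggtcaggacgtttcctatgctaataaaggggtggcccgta
The DDX60 stretch is chr4:168318753-168318902 (- strand), bases -150 to -1, with matches at -88 and -53.
DDX60: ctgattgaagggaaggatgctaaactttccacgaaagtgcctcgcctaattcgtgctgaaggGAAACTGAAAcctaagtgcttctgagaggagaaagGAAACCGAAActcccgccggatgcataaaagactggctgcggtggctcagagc
The HERC5 stretch is chr4:88456969-88457118 (+ strand), bases -150 to -1, with matches at -125, -119 and -74.
HERC5: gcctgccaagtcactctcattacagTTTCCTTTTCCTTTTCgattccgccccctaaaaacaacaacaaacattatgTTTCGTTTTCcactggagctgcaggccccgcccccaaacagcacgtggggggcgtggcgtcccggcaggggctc
The CXCL10 stretch is chr4:76023668-76023747 (- strand), bases -250 to -171, with a match at -221.
CXCL10: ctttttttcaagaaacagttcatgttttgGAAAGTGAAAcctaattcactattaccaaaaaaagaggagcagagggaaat

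RefSeq promoters, from 250 bases before to 50 after the start site, were found for 38 of the 48 listed genes, with 51 start sites. The motif was present in 30 of those 51 promoters (58.8%), against 3.57% of all 35116 promoters of the same length. At least 2 matches were present in 16 of the 51 (31.4%), against 0.259% of all promoters. Counted by gene, 25 of 38 members held a match (65.8%), against 4.38% of all genes. The 13 without a match in the window included RIGI, IRF9, SP110, OAS1, UBE2L6 and ZC3HAV1. Only this motif was searched. These matches are a description of the sequence and were not tested as binding sites.

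**Figure D1:**
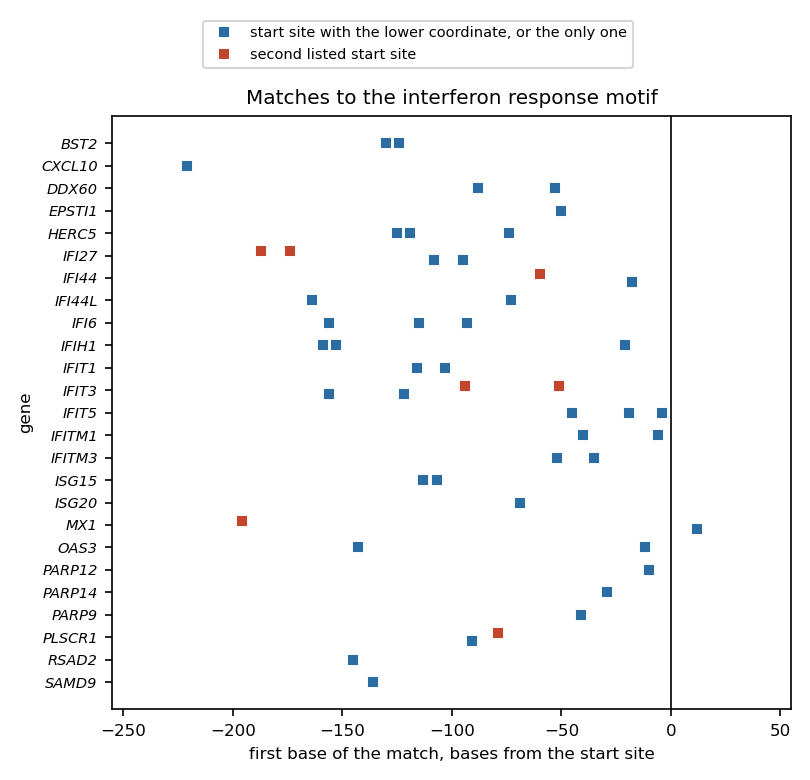
Matches to the core of the response element on either strand in the RefSeq promoters of the 25 interferon-stimulated genes that hold one. The x axis gives the first base of each match in bases from the start site (vertical line), blue squares are a gene's only start site or the one with the lower coordinate, and red squares its second listed start site. All matches but 1 of MX1, at 12, lie upstream, and the CXCL10 match lies farthest off, at -221.

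Arrays were alike in quality. On each array 39.5% to 45.04% of probes were detected, and arrays of a group correlated at r = 0.991 to 0.996. Squamous epithelial markers were detected on all 3 arrays for 7 of the 7 with a probe in SCC-25, Cal-27 and FaDu, and for 6 of 7 in SQ20B, where KRT14 was not detected. Of 9 leukocyte markers 1 to 3 were detected on all 3 arrays of each group. CD14 was among them in all 8 groups and rose by 0.97 in SCC-25 and 0.33 in Cal-27 and fell by 0.72 in FaDu. CD74 rose by 1.66 in Cal-27, and it rose in FaDu, where 3 resistant and 0 sensitive arrays detected it. SPI1 rose in Cal-27, where 1 resistant and 0 sensitive arrays detected it. PTPRC, CD3E and SPI1 were detected on all 3 arrays of no group. Of 6 endothelial markers 0 to 2 were detected, and CDH5 rose by 3.56 in Cal-27 and 2.55 in FaDu. VWF went the other way in FaDu (-1.04) and rose in SQ20B (0.48). PECAM1 rose in SCC-25, where 2 resistant and 0 sensitive arrays detected it. Some fibroblast markers moved with resistance in SCC-25, where 5 of 6 were detected in both states. DCN (4.15), COL3A1 (2.92) and LUM (2.78) rose there, COL1A2 fell (-0.83), and the arrays of COL1A1 overlapped (0.21). The mean log2 level of the fibroblast markers per array was 6.38 to 6.74 in sensitive and 8.09 to 8.16 in resistant cells. Squamous markers moved in Cal-27, where their mean level was 11.1 to 11.2 in sensitive and 9.31 to 9.44 in resistant cells, and in FaDu, where it was 9.80 to 9.88 and 9.05 to 9.15. The changes of KRT14, a basal keratin, were -6.24 in Cal-27 and -2.37 in FaDu. KRT5, SFN, DSG3 and DSP also fell in both lines. ITGB4 changed by -0.55 in Cal-27 and 0.39 in FaDu, and CDH1 by 0.03 and 0.31. In SCC-25 the mean squamous level was 11.3 to 11.4 in sensitive and 10.8 to 11.0 in resistant cells. KRT14, SFN, CDH1, DSG3 and DSP fell there. In SQ20B KRT5 and SFN fell while DSG3, DSP and ITGB4 rose. In SQ20B the fibroblast genes COL3A1 and LUM were detected on all 3 resistant arrays and 0 of 6 fibroblast markers were in sensitive cells, where the mean level was 4.45 to 4.54 against 5.46 to 5.62. The part of these shifts in the results below was not tested. In such bulk samples, fewer cells of a type and less RNA per cell cannot be told apart.

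The 4 lines differed in what happened to the interferon-stimulated genes. In resistant SQ20B nearly the whole list rose, in resistant FaDu most of it rose and a small set fell, and in resistant Cal-27 most called genes fell. In resistant SCC-25, 31 of the 47 genes were not called, and the called changes were mostly under 2-fold. A gene is called when limma's p, adjusted by Benjamini-Hochberg over the 14077 genes, is under 0.05, and a change is the log2 intensity in resistant cells minus that in sensitive cells, ± its standard error with 3 arrays on each side. In SQ20B, 44 of the 47 genes rose and 0 fell, where 28.4% of all genes tested rose and 25.8% fell. The median change of the members was 2.53 there, against 0.00 for all genes. In FaDu, 30 rose and 7 fell, against 20.6% and 20.3% of all genes, with a median of 0.62 against -0.02. In Cal-27, 8 rose and 25 fell, against 16.4% and 17.4% of all genes, with a median of -0.37 against -0.01. In SCC-25, 12 rose and 4 fell, against 15.4% and 15.5% of all genes, with a median of 0.12 against 0.00. With undetected groups held at their bound, the medians were 2.53, 0.62, -0.37 and 0.12 in the same order.

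**Figure D2:**
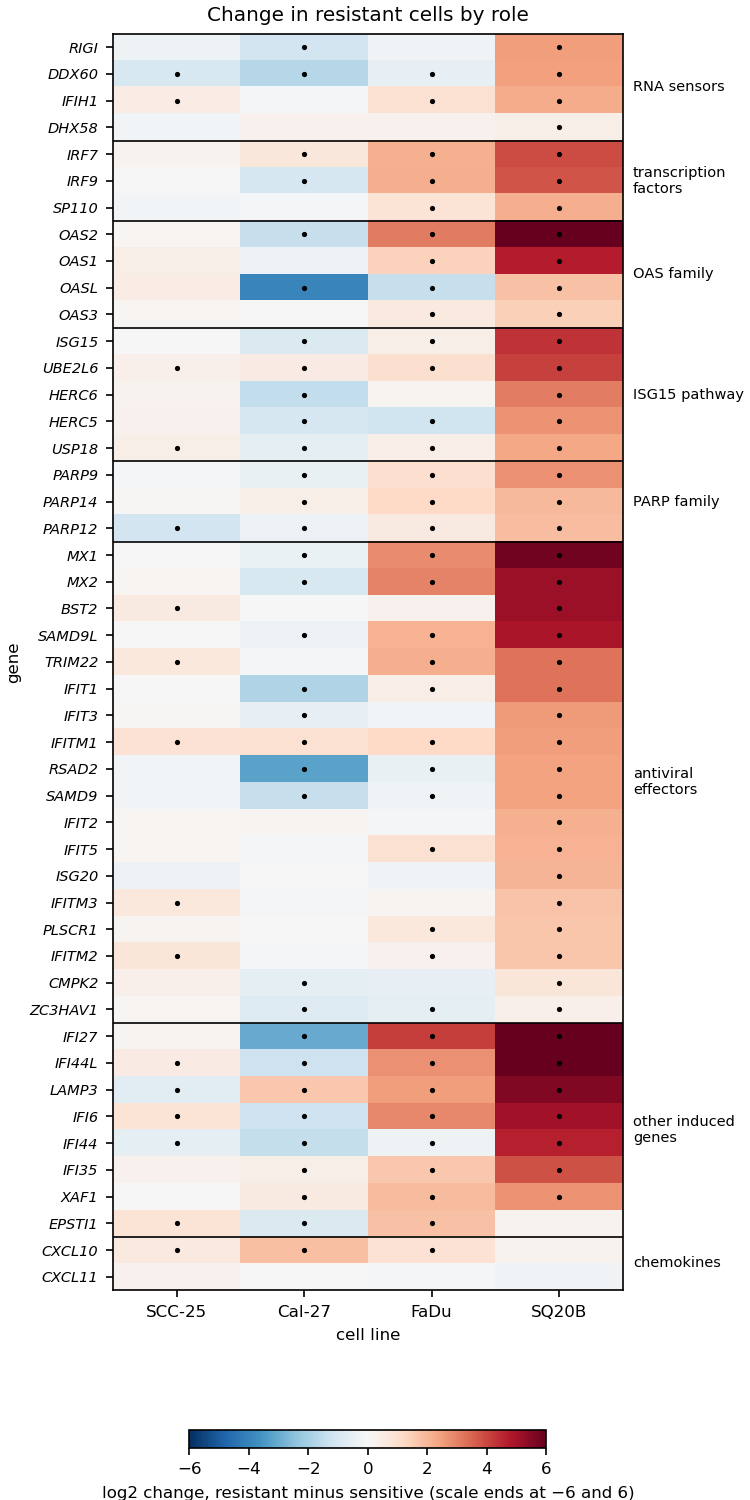
Log2 change in resistant against sensitive cells for the 47 interferon-stimulated genes, grouped by role, in each line. Red is higher and blue lower in resistant cells, the colour scale ends at -6 and 6, and a black dot marks an adjusted p under 0.05. The SQ20B column is red almost throughout, while Cal-27 is mostly blue and SCC-25 mostly pale.

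At least a 2-fold change was reached with a call by 41 members up and 0 down in SQ20B and by 18 up and 2 down in FaDu. In Cal-27 it was reached by 2 up and 13 down, and in SCC-25 by 0 up and 1 down. Of the 14077 genes tested, 1195 did so up and 777 down in SQ20B, and 625 and 188 in FaDu. The numbers for all genes were 461 and 341 in Cal-27 and 293 and 265 in SCC-25. In SQ20B, 22 of the 47 changes lay above the 99th percentile of all genes, which was 2.63. The corresponding number was 11 in FaDu, 1 in Cal-27 and 0 in SCC-25. In Cal-27, 5 members lay below the 1st percentile, -1.49. IFITM1 and UBE2L6 rose in all 4 lines, as did 1.63% of all genes tested, and 0 members fell in all 4, against 1.28% of all genes.

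**Figure D3:**
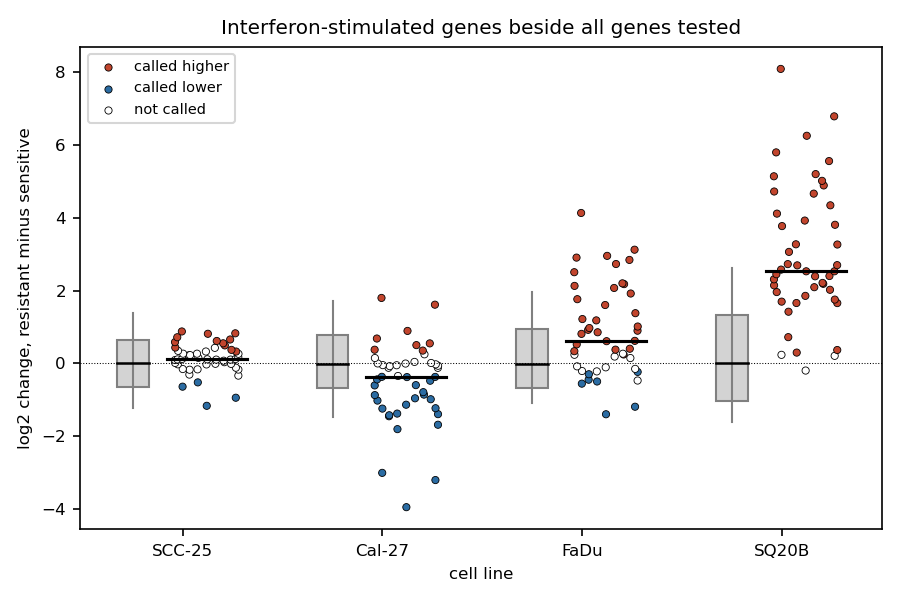
Log2 change in resistant against sensitive cells for the 47 interferon-stimulated genes (points, with their median as a black line) beside all 14077 genes tested. The grey bar spans the 5th to 95th percentile of all genes, the thin line the 1st to 99th, and the short black line is their median. The points sit around 0 in SCC-25, lean below it in Cal-27 and lie mostly above the grey bar in SQ20B.

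The signal itself was scarcely measurable. Of 20 interferon ligand genes on the array, 18 were not detected on enough arrays to be tested. IFNB1, which encodes interferon beta, was detected on 2 arrays, both of resistant SQ20B, and on no array of the other groups. IFNE, an epithelial type I interferon, was detected on 21 arrays and rose in SQ20B (0.37 ± 0.14, adjusted p = 0.0405). That rise lies near the detection limit, since 1 of 3 sensitive and 3 of 3 resistant SQ20B arrays detected IFNE. IFNA21 was detected on 3 arrays, none of them of FaDu or SQ20B, although its FaDu difference passed the test.

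The receptor genes moved in different directions. IFNAR1, a chain of the type I receptor, rose in Cal-27 (0.43 ± 0.10, adjusted p = 0.00528), FaDu (0.96 ± 0.09, adjusted p = 3.5e-06) and SQ20B (0.98 ± 0.09, adjusted p = 1.07e-06) and fell in SCC-25 (-0.29 ± 0.10, adjusted p = 0.048). Its partner IFNAR2 fell in SCC-25 (-0.76 ± 0.14, adjusted p = 0.00114) and was called in no other line. The kinase JAK1 rose in Cal-27, FaDu and SQ20B, by 0.45 ± 0.09, 0.50 ± 0.12 and 0.98 ± 0.12. TYK2, the other kinase, rose by 0.44 ± 0.10 in SCC-25, 0.31 ± 0.10 in Cal-27 and 0.41 ± 0.10 in FaDu, and its change in SQ20B was 0.10 ± 0.10 (adjusted p = 0.417).

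Of 45 further pathway genes listed, 25 were tested. In SCC-25 2 of the 25 rose and 8 fell, against 15.4% and 15.5% of all genes tested. In Cal-27 8 rose and 7 fell, against 16.4% and 17.4%. In FaDu 9 rose and 2 fell, against 20.6% and 20.3%. In SQ20B 9 rose and 6 fell, against 28.4% and 25.8%. Without sensitive SCC-25 replicate 2 or 3, 1 rose in SCC-25. CGAS, the cytosolic DNA sensor, fell in all 4 lines, with changes of -0.79 ± 0.09 (SCC-25), -0.61 ± 0.09 (Cal-27), -1.29 ± 0.17 (FaDu) and -1.14 ± 0.17 (SQ20B). IKBKE, a kinase that activates interferon regulatory factors, rose by 1.53 ± 0.11 in Cal-27 (adjusted p = 3.26e-07) and by 0.56 ± 0.15 in FaDu and fell in SQ20B (-0.61 ± 0.15) and SCC-25 (-0.31 ± 0.11). TLR3, an endosomal sensor of double-stranded RNA, rose in Cal-27 (0.64 ± 0.08), FaDu (0.54 ± 0.11) and SQ20B (1.10 ± 0.11). Only 1 of 3 sensitive SQ20B arrays detected TLR3. SOCS1, a feedback inhibitor of the receptor's kinases, rose in Cal-27 (0.70 ± 0.13) and fell in SCC-25 (-0.97 ± 0.13). ADAR, which edits double-stranded RNA, rose in FaDu (0.37 ± 0.09) and SQ20B (1.01 ± 0.09).

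All 4 RNA sensors were called higher in SQ20B, DHX58 with overlapping arrays. In FaDu 1 rose and 1 fell, in Cal-27 2 fell, and in SCC-25 1 rose and 1 fell. Of all genes tested, 28.4% rose and 25.8% fell in SQ20B, and 20.6% and 20.3% in FaDu. The shares were 16.4% and 17.4% in Cal-27 and 15.4% and 15.5% in SCC-25. These shares also apply to the counts of the role groups below. RIGI senses viral RNA with a triphosphate end. In SQ20B its log2 intensity was 5.03, 5.005 and 4.90 on the sensitive arrays and 7.33, 7.63 and 7.56 on the resistant ones, a rise of 2.53 ± 0.09 (adjusted p = 1.9e-10). In Cal-27 it fell from 7.21, 7.24 and 7.29 to 6.18, 6.11 and 6.04, a change of -1.14 ± 0.11 (adjusted p = 4.83e-06). The groups were apart in both lines and the directions opposite. RIGI read 7.27, 7.36 and 7.24 in sensitive and 7.03, 7.10 and 7.08 in resistant FaDu (-0.22 ± 0.09, adjusted p = 0.0651). Its SCC-25 arrays overlapped, at 6.15, 5.94 and 5.71 and 5.76, 5.61 and 5.50 (-0.31 ± 0.11, adjusted p = 0.0503), and the fall was called without sensitive replicate 3, at -0.42, or resistant replicate 1, at -0.38.

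IFIH1, also called MDA5, senses long double-stranded RNA. It rose in SQ20B from 8.06, 8.13 and 8.49 to 10.48, 10.48 and 10.35 (2.21 ± 0.12, adjusted p = 1.4e-08). In FaDu it rose from 8.57, 8.81 and 8.54 to 9.70, 9.51 and 9.40 (0.90 ± 0.12, adjusted p = 9.79e-05). In SCC-25 the arrays read 8.44, 8.38 and 8.50 in sensitive and 8.96, 8.89 and 8.77 in resistant cells, a rise of 0.43 ± 0.09 (adjusted p = 0.00196). Every resistant array of these 3 lines was above every sensitive array of its line. In Cal-27 the groups overlapped, at 9.12, 9.07 and 9.10 and 9.07, 8.999 and 8.85 (-0.12 ± 0.09, adjusted p = 0.314).

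DDX60, a helicase described as a cofactor of RIG-I-like sensors, fell in 3 lines. It went from 8.49, 8.39 and 8.32 to 6.82, 6.72 and 6.59 in Cal-27 (-1.69 ± 0.10, adjusted p = 4.57e-08). In SCC-25 it went from 9.40, 9.67 and 9.51 to 8.55, 8.51 and 8.69 (-0.95 ± 0.10, adjusted p = 1.37e-05). The fall was smaller in FaDu, from 9.84, 9.95 and 9.82 to 9.50, 9.40 and 9.22 (-0.50 ± 0.11, adjusted p = 0.00231). No sensitive array of these lines was below a resistant one. SQ20B stood opposite, with 6.66, 6.49 and 6.63 in sensitive and 8.95, 9.25 and 8.92 in resistant cells (2.45 ± 0.11, adjusted p = 1.36e-09). DHX58, also called LGP2, a helicase that modulates the other sensors, was near the detection limit in SQ20B, on 0 of 3 sensitive and 2 of 3 resistant arrays. Its arrays there overlapped, at 4.29, 4.28 and 4.58 and 4.84, 4.91 and 4.50, although the change was called (0.37 ± 0.12, adjusted p = 0.0236), and the call ended without sensitive replicate 1 or 2 or resistant replicate 1 or 2, at 0.29 to 0.32. DHX58 was called in no other line, with levels of 5.44, 5.70 and 5.71 and 5.23, 5.60 and 5.48 in SCC-25, 5.76, 6.01 and 5.93 and 6.08, 6.28 and 6.08 in Cal-27, and 6.94, 7.05 and 6.94 and 7.12, 7.40 and 7.21 in FaDu.

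All 3 transcription factors measured rose in FaDu and SQ20B, with 1 up and 1 down in Cal-27 and none called in SCC-25. IRF7, which drives transcription of the interferon alpha genes, went from 7.31, 7.33 and 7.53 to 11.36, 11.27 and 11.31 in SQ20B (3.92 ± 0.09, adjusted p = 2.5e-12). In FaDu it went from 7.42, 7.52 and 7.33 to 9.59, 9.50 and 9.57 (2.13 ± 0.09, adjusted p = 1.47e-09). It also rose in Cal-27, against most of the list there, from 7.14, 7.19 and 7.25 to 7.95, 7.87 and 7.81 (0.68 ± 0.10, adjusted p = 0.000203). The resistant arrays were above the sensitive ones in each of these lines. In SCC-25 the arrays overlapped, at 7.99, 8.23 and 8.34 and 8.43, 8.52 and 8.29 (0.23 ± 0.10, adjusted p = 0.116). The second tested IRF7 probe was also called higher in Cal-27, FaDu and SQ20B.

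IRF9, the DNA-binding subunit of the complex with STAT2, changed in opposite directions in Cal-27 and the lines FaDu and SQ20B. It rose from 7.25, 7.23 and 7.09 to 11.01, 10.95 and 10.93 in SQ20B (3.77 ± 0.09, adjusted p = 6.94e-12). In FaDu it rose from 9.03, 9.27 and 9.18 to 11.29, 11.46 and 11.26 (2.18 ± 0.09, adjusted p = 2.02e-09). In Cal-27 it fell from 8.87, 8.79 and 8.74 to 7.90, 7.56 and 7.86 (-1.02 ± 0.12, adjusted p = 3.45e-05). IRF7 and IRF9 therefore moved apart in Cal-27, and together in FaDu and SQ20B. The SCC-25 arrays of IRF9 overlapped, at 10.32, 10.53 and 10.38 and 10.68, 10.42 and 10.22 (0.03 ± 0.12, adjusted p = 0.887). SP110, a nuclear body protein, rose from 8.21, 8.55 and 8.54 to 10.61, 10.62 and 10.62 in SQ20B (2.19 ± 0.10, adjusted p = 1.85e-09) and from 8.45, 8.23 and 8.36 to 9.16, 9.18 and 9.12 in FaDu (0.81 ± 0.10, adjusted p = 3.33e-05). It was not called in SCC-25 (9.28, 9.38 and 9.16 and 9.14, 9.09 and 9.08, -0.17 ± 0.08) or Cal-27 (9.25, 9.20 and 9.27 and 9.18, 9.23 and 9.17, -0.05 ± 0.08).

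OAS1, OAS2 and OAS3 make the oligoadenylates that activate RNase L, while OASL lacks that activity and acts on RIG-I signalling. All 4 rose in SQ20B, and in FaDu the 3 enzymes rose while OASL fell. OAS2 had the largest change of the family in SQ20B, from 6.30, 6.37 and 6.12 to 12.56, 12.53 and 12.46 (6.26 ± 0.09, adjusted p = 1.01e-13). In FaDu it rose from 7.76, 7.65 and 7.53 to 10.74, 10.78 and 10.79 (3.12 ± 0.09, adjusted p = 1.18e-10). In Cal-27 it fell from 9.03, 8.95 and 8.88 to 7.53, 7.71 and 7.43 (-1.40 ± 0.10, adjusted p = 3.56e-07), so its sensitive arrays there stood above the resistant ones. The SCC-25 arrays overlapped, at 9.90, 9.97 and 10.21 and 10.17, 10.13 and 10.10 (0.11 ± 0.10, adjusted p = 0.476). OAS1 rose by 4.72 ± 0.15 in SQ20B and by 1.38 ± 0.15 in FaDu, and OAS3 by 1.42 ± 0.10 and 0.61 ± 0.10, all called.

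OASL fell in Cal-27, with the lowest change of the members detected in both states. It read 8.72, 8.79 and 8.83 on the sensitive arrays and 5.04, 4.63 and 4.80 on the resistant ones, where 1 of 3 arrays detected it (-3.95 ± 0.16, adjusted p = 2.04e-09). In FaDu it fell from 10.999, 10.93 and 11.06 to 9.65, 9.44 and 9.69 (-1.40 ± 0.12, adjusted p = 1.06e-06). In SQ20B it rose from 6.25, 5.80 and 6.15 to 7.87, 7.82 and 7.77 (1.75 ± 0.12, adjusted p = 5.52e-08). The groups were apart in each of the 3 lines. In SCC-25 they overlapped, at 10.31, 9.93 and 9.61 and 10.22, 10.54 and 10.37 (0.43 ± 0.16, adjusted p = 0.0592), and the change was called without sensitive replicate 1, at 0.60. A second OASL probe was called lower in Cal-27 and FaDu and was not called in SQ20B.

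The ISG15 pathway attaches the ubiquitin-like protein ISG15 to other proteins. UBE2L6 is its conjugating enzyme, HERC5 its ligase, HERC6 a relative of HERC5 that serves as the ligase in mouse, and USP18 the protease that removes it and also restrains the interferon receptor. All 5 rose in SQ20B, 3 rose and 1 fell in FaDu, 1 rose and 4 fell in Cal-27, and 2 rose in SCC-25. ISG15 went from 8.09, 7.92 and 7.93 to 12.31, 12.36 and 12.29 in SQ20B (4.34 ± 0.08, adjusted p = 7.44e-13) and fell by 0.87 ± 0.12 in Cal-27. UBE2L6 was called higher in every line, by 0.32 ± 0.09 (SCC-25), 0.50 ± 0.09 (Cal-27), 0.97 ± 0.07 (FaDu) and 4.12 ± 0.07 (SQ20B), and its second probe was called higher in Cal-27 and SQ20B only. The conjugating enzyme and ISG15 thus had opposite calls in Cal-27.

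HERC5 fell in FaDu, where ISG15, UBE2L6 and USP18 rose. Its arrays there read 12.28, 12.25 and 12.16 in sensitive and 11.15, 10.96 and 10.999 in resistant cells, a fall of 1.19 ± 0.10 (adjusted p = 1.1e-06). In Cal-27 it fell from 9.68, 9.58 and 9.75 to 8.75, 8.70 and 8.60 (-0.99 ± 0.11, adjusted p = 1.98e-05). In SQ20B it rose from 7.09, 7.34 and 7.26 to 10.09, 9.88 and 9.82 (2.70 ± 0.10, adjusted p = 2.59e-10). No sensitive and resistant arrays overlapped in these lines. The SCC-25 arrays did, at 10.38, 9.98 and 9.996 and 10.36, 10.50 and 10.28 (0.26 ± 0.11, adjusted p = 0.0966), and without sensitive replicate 1 the change was called, at 0.39. HERC6, its neighbour in the genome, fell by 1.45 ± 0.12 in Cal-27 and was not called in FaDu (0.15 ± 0.12, adjusted p = 0.354).

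PARP9, PARP12 and PARP14 belong to the ADP-ribosyltransferase family, and all 3 rose in FaDu and SQ20B. PARP12 gave the largest fall of any member in SCC-25, from 9.04, 9.02 and 9.09 to 7.95, 7.93 and 7.77 (-1.17 ± 0.08, adjusted p = 7.56e-07). It fell in Cal-27 too, from 8.97, 9.19 and 9.06 to 8.77, 8.68 and 8.65 (-0.37 ± 0.08, adjusted p = 0.00423). Both tongue lines were therefore lower in resistant cells with no overlap between groups. PARP12 rose in FaDu from 7.48, 7.45 and 7.40 to 7.89, 8.08 and 7.93 (0.52 ± 0.09, adjusted p = 0.000402) and in SQ20B from 7.72, 7.64 and 7.53 to 9.57, 9.38 and 9.50 (1.85 ± 0.09, adjusted p = 2.66e-09). PARP14 rose and PARP9 fell in Cal-27, by 0.37 ± 0.09 and -0.44 ± 0.10.

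The antiviral effectors make up 18 of the 47 genes, and all 18 rose in SQ20B. In FaDu 9 rose and 3 fell, in Cal-27 1 rose and 9 fell, and in SCC-25 5 rose and none fell. MX1 and MX2 are dynamin-like GTPases that trap viral particles, and they are neighbours in the genome. MX1 went from 7.50, 7.93 and 7.61 to 13.51, 13.44 and 13.49 in SQ20B (5.80 ± 0.10, adjusted p = 6.52e-13). In FaDu it went from 9.60, 9.66 and 9.65 to 12.49, 12.52 and 12.43 (2.84 ± 0.10, adjusted p = 5.09e-10). MX1 thus rose in both lines, while in Cal-27 it fell from 11.53, 11.41 and 11.55 to 11.12, 11.04 and 11.20 (-0.38 ± 0.08, adjusted p = 0.00316). SCC-25 did not detect MX1 on any of its 6 arrays, sensitive (4.32, 4.39 and 4.31) or resistant (4.28, 4.27 and 4.42). MX2 was not detected on the SCC-25 arrays either (4.44, 4.50 and 4.46 and 4.66, 4.40 and 4.69).

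MX2 was not detected in sensitive SQ20B, where its arrays read 4.71, 4.47 and 4.60, and read 9.79, 9.84 and 9.76 in resistant cells. It was at least 29.5-fold higher there (adjusted p = 1.47e-11). A fold of this kind sets the mean of the brighter group against the lowest signal that counted as detected on the arrays of the dimmer one. It is a lower bound for the main background correction only. Without background correction the log2 change of MX2 in SQ20B was 3.17, which is below that bound. In FaDu MX2 rose from 4.92, 5.57 and 5.10 to 8.20, 8.14 and 8.11 (2.95 ± 0.14, adjusted p = 5.13e-09). In Cal-27 it fell from 6.40, 6.23 and 6.45 to 5.41, 5.31 and 5.48 (-0.96 ± 0.10, adjusted p = 7.17e-06). The MX2 fall in Cal-27 was not called with the authors' processed values (-1.33, adjusted p = 0.138), and it was -0.38 without background correction. Both MX genes rose in FaDu and SQ20B.

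RSAD2, or viperin, makes a chain-terminating nucleotide, and CMPK2 beside it in the genome is a nucleotide kinase. RSAD2 was lost from detection in resistant Cal-27, at 7.91, 8.02 and 7.86 in sensitive and 4.75, 4.71 and 4.70 in resistant cells, at least 8.09-fold lower (adjusted p = 1.2e-08). It rose in SQ20B from 4.71, 4.62 and 5.15, detected on 1 of 3 arrays, to 7.25, 7.26 and 7.16 (2.40 ± 0.13, adjusted p = 7.14e-09). CMPK2 shared these directions, at least 1.19-fold lower in resistant Cal-27 and at least 1.18-fold higher in resistant SQ20B. In FaDu RSAD2 fell by 0.45 ± 0.13 (adjusted p = 0.0116).

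BST2, or tetherin, which holds budding virus at the cell surface, went from 5.67, 5.31 and 5.50 to 10.59, 10.61 and 10.71 in SQ20B (5.14 ± 0.09, adjusted p = 7.44e-13). FaDu, on the same scale, read 9.998, 10.02 and 10.11 in sensitive cells, and its change of 0.24 ± 0.09 was not called (adjusted p = 0.0626). BST2 also rose in SCC-25 (0.55 ± 0.10, adjusted p = 0.00152). SAMD9 and SAMD9L, neighbours in the genome that restrict poxviruses, moved apart in FaDu. SAMD9L rose there from 6.30, 6.32 and 6.38 to 8.18, 8.57 and 8.46 (2.07 ± 0.17, adjusted p = 9.29e-07). SAMD9 fell there from 10.84, 10.83 and 10.93 to 10.66, 10.64 and 10.59 (-0.24 ± 0.07, adjusted p = 0.0182). Neither pair of groups overlapped, and in SQ20B both rose, by 4.89 ± 0.17 and 2.39 ± 0.07. SAMD9L read 5.60, 5.19 and 4.80 in sensitive and 10.24, 10.02 and 10.003 in resistant SQ20B. In Cal-27 it read 7.53, 7.74 and 7.67 and 7.41, 7.14 and 7.28 (-0.37 ± 0.13, adjusted p = 0.0383), a call that ended without sensitive replicate 2 or 3 or resistant replicate 2 or 3, at -0.37 to -0.30. In SCC-25 the arrays overlapped, at 5.98, 5.83 and 6.26 and 5.81, 6.16 and 6.01.

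The IFIT proteins bind viral RNA and the IFITM proteins block viral entry. The 4 IFIT genes rose in SQ20B, by 3.27 ± 0.10 for IFIT1, 2.14 ± 0.07 for IFIT2, 2.58 ± 0.12 for IFIT3 and 2.09 ± 0.16 for IFIT5. In FaDu IFIT1 and IFIT5 rose, by 0.40 ± 0.10 and 0.92 ± 0.16. IFIT1 fell in Cal-27 from 10.64, 10.64 and 10.68 to 8.78, 8.89 and 8.86 (-1.81 ± 0.16, adjusted p = 2.36e-06). The IFITM genes were the effectors that rose in SCC-25, with 0.88 ± 0.14 for IFITM1, 0.72 ± 0.11 for IFITM2 and 0.61 ± 0.10 for IFITM3, beside TRIM22 (0.65 ± 0.13) and BST2.

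IFITM1 rose in every line. It went from 9.75, 10.29 and 10.39 to 11.12, 10.98 and 10.96 in SCC-25 (adjusted p = 0.000422). In Cal-27 it went from 9.35, 9.26 and 9.29 to 10.06, 10.24 and 10.27 (0.89 ± 0.14, adjusted p = 0.000303), the one effector called higher there. The rise was 1.22 ± 0.09 in FaDu, from 9.22, 9.14 and 9.25 to 10.54, 10.24 and 10.48 (adjusted p = 3.01e-07). In SQ20B it was 2.53 ± 0.09, from 9.73, 9.67 and 9.68 to 12.22, 12.21 and 12.24 (adjusted p = 1.51e-10). All resistant arrays stood above all sensitive arrays of their line.

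ZC3HAV1, or ZAP, binds viral RNA rich in CpG and showed the smallest called rise among SQ20B effectors. It fell in Cal-27 from 10.49, 10.51 and 10.45 to 9.64, 9.68 and 9.76 (-0.79 ± 0.10, adjusted p = 4.19e-05) and in FaDu from 10.81, 10.77 and 10.86 to 10.31, 10.21 and 10.23 (-0.56 ± 0.07, adjusted p = 4.6e-05). In SQ20B it read 9.21, 9.22 and 9.24 and 9.49, 9.56 and 9.51 (0.30 ± 0.07, adjusted p = 0.00315). The other 2 tested ZC3HAV1 probes did not share that rise, since 1 was called lower in SQ20B, at -0.50, and the mean of the 3 probes was -0.15. Its direction in SQ20B therefore rests on the probe chosen, and in SCC-25 it was not called (9.97, 9.75 and 9.66 and 9.80, 10.05 and 9.83, 0.10 ± 0.10).

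**Figure D4:**
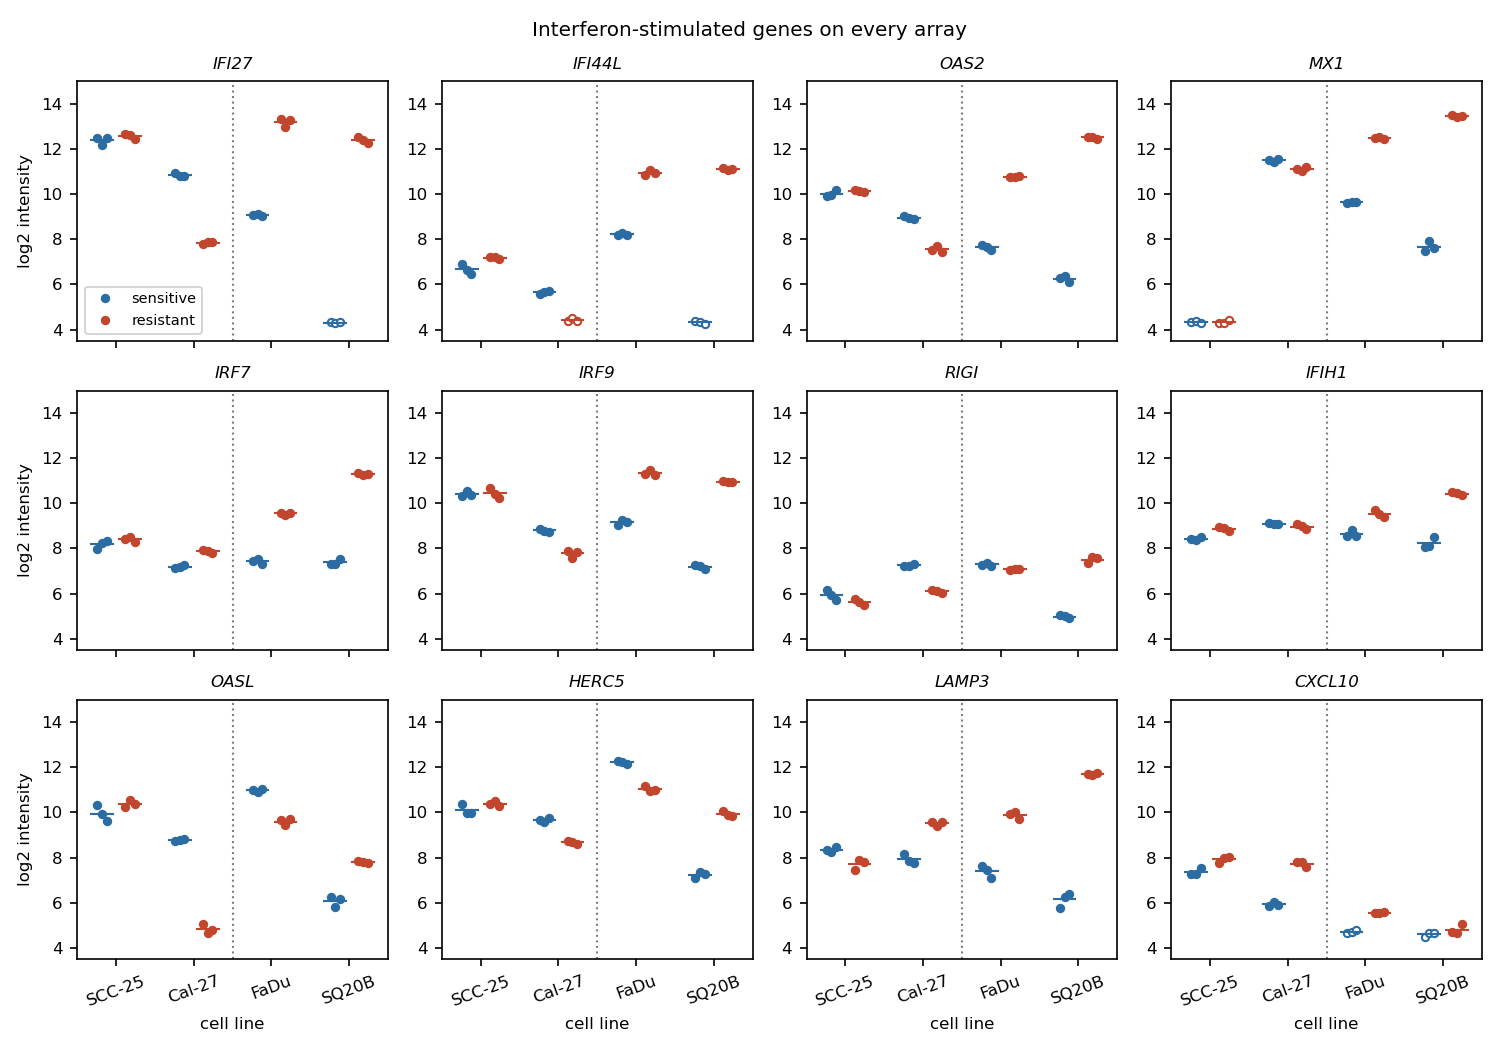
Log2 intensity of 12 interferon-stimulated genes on every array, with sensitive arrays in blue, resistant arrays in red and the group mean as a short line. Open circles mark groups in which no array detected the gene, and the dotted line separates the 2 tables, whose scales differ. IFI27 and IFI44L are open in sensitive SQ20B and filled, far above, in resistant SQ20B, and MX1 is open in both states of SCC-25.

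Of the 8 remaining induced genes, 7 rose in SQ20B, 7 rose and 1 fell in FaDu, 3 rose and 5 fell in Cal-27, and 3 rose and 2 fell in SCC-25. IFI27, a small mitochondrial membrane protein, was not detected in sensitive SQ20B (4.31, 4.27 and 4.34) and read 12.53, 12.40 and 12.28 in resistant cells, at least 179.6-fold higher (adjusted p = 2.8e-14). That bound holds for the main background correction only, and the lowest log2 change among the alternatives, 5.82, is below it. In FaDu IFI27 rose from 9.07, 9.13 and 9.04 to 13.34, 12.997 and 13.30 (4.13 ± 0.10, adjusted p = 3.55e-11). In Cal-27 it fell from 10.96, 10.83 and 10.80 to 7.81, 7.87 and 7.88 (-3.01 ± 0.10, adjusted p = 4.38e-10). SCC-25 held it high in both states with overlapping arrays, at 12.48, 12.20 and 12.50 and 12.65, 12.61 and 12.44 (0.17 ± 0.10, adjusted p = 0.22). IFI6, an inhibitor of mitochondrial apoptosis, rose in SQ20B from 8.76, 8.92 and 8.88 to 13.92, 13.85 and 13.84 (5.02 ± 0.11, adjusted p = 4.54e-12). It rose in FaDu from 9.59, 9.32 and 9.84 to 12.43, 12.47 and 12.57 (2.91 ± 0.11, adjusted p = 1.35e-09). In SCC-25 it rose from 11.39, 10.93 and 11.03 to 12.20, 12.02 and 11.61 (0.83 ± 0.15, adjusted p = 0.00135) and in Cal-27 it fell from 10.80, 10.60 and 10.77 to 9.32, 9.54 and 9.58 (-1.24 ± 0.15, adjusted p = 4.12e-05).

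IFI44L and IFI44 are neighbours in the genome and moved in opposite directions in FaDu and SCC-25. IFI44L rose in FaDu from 8.20, 8.30 and 8.21 to 10.86, 11.09 and 10.94 (2.73 ± 0.08, adjusted p = 1.64e-10). IFI44 fell there from 11.47, 11.58 and 11.56 to 11.08, 11.34 and 11.30 (-0.30 ± 0.09, adjusted p = 0.0213), a call that ended without sensitive replicate 2 or 3 or resistant replicate 1, at -0.29 to -0.22. In SCC-25 IFI44L rose from 6.92, 6.63 and 6.48 to 7.21, 7.20 and 7.11 (0.49 ± 0.11, adjusted p = 0.00347) and IFI44 fell from 10.16, 9.97 and 10.17 to 9.41, 9.72 and 9.60 (-0.52 ± 0.10, adjusted p = 0.00208). Each change left its groups apart. The second IFI44L probe rose in FaDu (2.13) and was not called in SCC-25 (0.16, adjusted p = 0.544). The opposite directions in SCC-25 therefore rest on the brightest IFI44L probe. In SQ20B both genes rose. IFI44L was not detected in sensitive SQ20B (4.37, 4.33 and 4.26) and read 11.16, 11.06 and 11.11 in resistant cells, at least 73.5-fold higher (adjusted p = 2.8e-14). Its lowest log2 change there among the alternatives was 4.56, which is below that bound. IFI44 went from 6.06, 6.06 and 6.26 to 10.72, 10.81 and 10.86 (4.66 ± 0.09, adjusted p = 1.14e-12). Both fell in Cal-27, IFI44L from 5.57, 5.66 and 5.71 to 4.37, 4.50 and 4.36, no longer detected and at least 1.66-fold lower (adjusted p = 1.66e-06), and IFI44 from 10.56, 10.68 and 10.74 to 9.37, 9.14 and 9.19 (-1.43 ± 0.10, adjusted p = 3.92e-07).

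LAMP3, a lysosomal membrane protein known from mature dendritic cells, went against most of the list in both tongue lines. It rose in Cal-27 from 8.14, 7.86 and 7.76 to 9.60, 9.40 and 9.59 (1.61 ± 0.13, adjusted p = 1.08e-06). In SCC-25 it fell from 8.36, 8.23 and 8.48 to 7.45, 7.88 and 7.80 (-0.64 ± 0.13, adjusted p = 0.00259). It followed the list elsewhere, from 7.62, 7.44 and 7.09 to 9.95, 9.999 and 9.71 in FaDu (2.50 ± 0.16, adjusted p = 1.3e-07) and from 5.77, 6.26 and 6.39 to 11.71, 11.65 and 11.74 in SQ20B (5.56 ± 0.16, adjusted p = 4.4e-11). The sensitive and resistant arrays were apart in all 4 lines. The second LAMP3 probe was called in the same direction in Cal-27, FaDu and SQ20B. XAF1, an antagonist of an apoptosis inhibitor, and IFI35 rose in Cal-27, FaDu and SQ20B, XAF1 by 0.55 ± 0.14, 1.92 ± 0.10 and 2.69 ± 0.10. EPSTI1 was the exception of SQ20B in this group. It was detected there on 0 of 3 sensitive arrays (4.40, 4.39 and 4.52) and 1 of 3 resistant arrays (4.66, 4.78 and 4.57, adjusted p = 0.0501), while it rose by 1.76 ± 0.09 in FaDu.

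The chemokines CXCL10 and CXCL11 attract T cells through CXCR3 and did not follow the list in SQ20B. CXCL10 was detected there on 0 of 3 sensitive arrays (4.49, 4.65 and 4.64) and 1 of 3 resistant arrays (4.69, 4.66 and 5.05), with an adjusted p of 0.12. It rose in Cal-27 from 5.86, 6.03 and 5.90 to 7.81, 7.80 and 7.57 (1.80 ± 0.11, adjusted p = 8.13e-08), a change that was 0.99 without background correction. In SCC-25 it rose from 7.25, 7.27 and 7.53 to 7.78, 7.99 and 8.04 (0.58 ± 0.11, adjusted p = 0.00144). The sensitive and resistant arrays were apart in both tongue lines. In FaDu it was undetected in sensitive cells (4.64, 4.68 and 4.78) and read 5.55, 5.54 and 5.58 in resistant cells, at least 1.64-fold higher (adjusted p = 3.54e-05). CXCL11 was detected on 4 of 24 arrays and called in no line.

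The genes against the rest were not the same from line to line. The 7 that fell in FaDu were OASL, HERC5, ZC3HAV1, DDX60, RSAD2, IFI44 and SAMD9, and each of them rose in SQ20B, with the limit given for ZC3HAV1. A call in both directions was therefore found for 7 genes, beside 28 that rose in both lines, where the 2 lines share no sample. The 8 that rose in Cal-27 were CXCL10, LAMP3, IFITM1, IRF7, XAF1, UBE2L6, PARP14 and IFI35. The 4 that fell in SCC-25 were PARP12, DDX60, LAMP3 and IFI44, and 3 of these, all but LAMP3, fell in Cal-27 as well. Of the 12 that rose in SCC-25, 3 also rose in Cal-27 and 4 fell there. The share of all genes with such pairs of calls was computed for neither pair of lines.

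The changes differed between the lines of a table when the difference itself was tested. The change in FaDu was below that in SQ20B for 43 of 47 members and above it for 2, against 16.8% and 16.7% of all genes tested. The 2 above were EPSTI1 (1.53 ± 0.13, adjusted p = 2.32e-06) and CXCL10 (0.65 ± 0.15, adjusted p = 0.00469), both undetected in sensitive SQ20B. The change in SCC-25 was above that in Cal-27 for 28 members and below it for 5, against 17.1% and 16.4% of all genes. The 28 include MX1 and MX2, which no SCC-25 array detected, so their differences rest on the Cal-27 fall alone. The count below was 3 without sensitive or resistant SCC-25 replicate 3 or sensitive Cal-27 replicate 1 or 2. IFITM1 and UBE2L6, which rose in both tongue lines, showed differences of -0.01 ± 0.20 (adjusted p = 0.966) and -0.18 ± 0.13 (adjusted p = 0.341) between them.

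The parental baseline was lower in SQ20B than in FaDu. Of 47 members, 40 were higher in sensitive FaDu than in sensitive SQ20B and 1, IFITM1, was lower, against 29.3% and 26.4% of all genes, with a median difference of 1.38 against 0.02 for all genes. Sensitive SQ20B had 7 members detected on no array, against 1 in sensitive FaDu. IFI44 (5.41 ± 0.09), HERC5 (4.9995 ± 0.10), OASL (4.93 ± 0.12) and BST2 (4.55 ± 0.09) had the largest differences among members measured in both. IFI27 was at least 18-fold, EPSTI1 at least 11.1-fold and IFI44L at least 10.0-fold higher in sensitive FaDu. IRF7 (0.03 ± 0.09, adjusted p = 0.763), SP110 and PARP12 were not called between these parental cultures. These comparisons share the sensitive arrays with the resistance comparisons, so the values are given side by side and no relation between them is drawn.

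The resistant cultures, compared in a step added after the data were seen, stood the other way. Of 47 members, 31 were lower and 10 higher in resistant FaDu than in resistant SQ20B, against 29.0% and 30.4% of all genes, with a median of -0.64 against 0.01. LAMP3 (-1.81 ± 0.16), IFITM1 (-1.81 ± 0.09), IRF7 (-1.76 ± 0.09) and OAS2 (-1.75 ± 0.09) were lowest in FaDu relative to SQ20B. EPSTI1 (5.48 ± 0.09), DHX58 (2.50 ± 0.12) and OASL (1.78 ± 0.12) were higher in resistant FaDu. For IFI44L, the resistant levels were 10.86, 11.09 and 10.94 in FaDu and 11.16, 11.06 and 11.11 in SQ20B, and the difference was not called (-0.15 ± 0.08, adjusted p = 0.146).

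**Figure D5:**
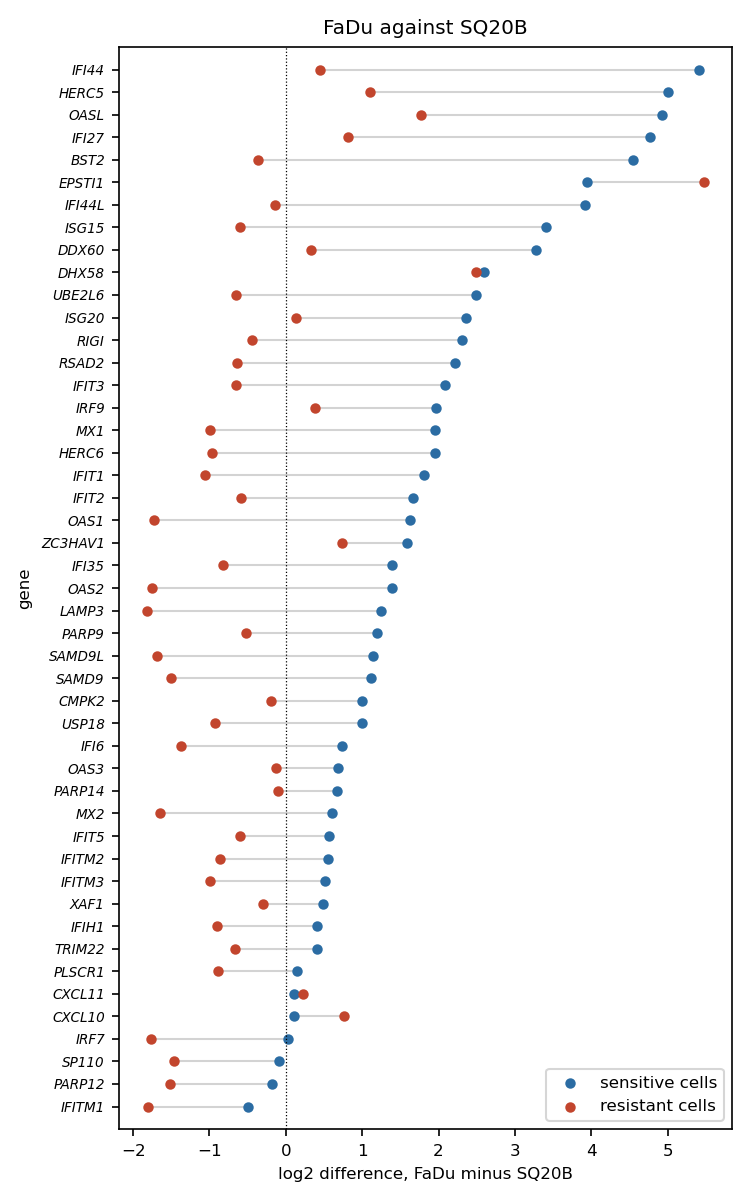
Difference in log2 intensity between FaDu and SQ20B for each of the 47 interferon-stimulated genes, in sensitive cells (blue) and in resistant cells (red), joined by a grey line. Values right of 0 are higher in FaDu. The blue points lie mostly right of 0 and the red points mostly left of it, with EPSTI1, DHX58 and OASL among those that stay on the right.

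The tongue lines had no such one-sided baseline. In sensitive cells 16 members were higher and 17 lower in SCC-25 than in Cal-27, against 27.9% and 27.9% of all genes, with a median of -0.10 against 0.00. MX1 was at least 92.5-fold lower in sensitive SCC-25, where no array detected it. EPSTI1 (-2.22 ± 0.11) and SAMD9L (-1.62 ± 0.13) were lower in SCC-25, and ISG20 (2.41 ± 0.16), IRF9 (1.61 ± 0.12) and IFI27 (1.53 ± 0.10) were higher. In resistant cells, again by the added comparison, 24 were higher and 12 lower in SCC-25, against 30.0% and 29.4% of all genes, and the median was 0.33, or 0.25 with undetected groups at their bound. OASL (5.55 ± 0.16) and IFI27 (4.71 ± 0.10) were the largest of the members higher in resistant SCC-25, and MX1 was at least 71.6-fold lower there. The lines were kept in different media, so line and medium cannot be told apart in these comparisons.

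Of the 47 members, 15 had more than 1 tested probe, with 23 probes beside the brightest. In SQ20B 20 of these 23 were called in the same direction as the brightest probe and 1, for ZC3HAV1, in the opposite one. In FaDu 18 were called in the same direction, in Cal-27 12 and in SCC-25 1, and none was called in the opposite direction in those lines. The 2 IFI6 probes rose by 5.02 and 5.75 in SQ20B and by 2.91 and 3.10 in FaDu. The other OAS2 probes rose less than the brightest in SQ20B, by 1.26 to 3.77, and the second IFI44L probe rose by 2.46 there. That IFI44L probe was not called in Cal-27, where the brightest fell, or in SCC-25, where the brightest rose.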

How the data were processed

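RNA of the 24 samples was hybridised to Illumina beadchips. The authors deposited 2 non-normalized tables of 12 arrays, one for SCC-25 and Cal-27 and one for FaDu and SQ20B. Per the file headers each array has a mean bead signal (intensity), a detection p-value and a bead number. Per the submitters' processing notes GenomeStudio was used, with a version and genome build not given in the sources used here. The authors also deposited processed intensities by steps that are likewise unstated, and this table served as an alternative. The 24 columns of bead standard errors were not used.

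Each table was corrected and normalized by itself with limma 3.58.1 in R 4.3.3 (neqc, offset 16, from detection p-values, then quantile normalization and log2), so the scales of the 2 tables differ. Probes needed exactly 1 gene symbol and, on 3 or more of the 24 arrays, a detection p-value under 0.05. Of 47231 probes, 30113 had 1 symbol, 8 several and 17110 none. Each gene was read by its brightest probe, and 14077 genes were tested with limma, 4 groups of a table in 1 fit, with Benjamini-Hochberg adjustment over all of them. The scripts were tested on simulated data. The median member had at least 18 beads on its thinnest array, and the lowest was 7. The number of arrays limits the precision.

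The genes and lists were chosen with earlier results of these data known. Values on every array were set for the sensors, the transcription factors, the 12 members with the largest mean absolute change and up to 4 per line against its main direction. Other members named were chosen after their values were seen. Alternatives were another background correction, scaling, filter, probe rule, a 2-fold limit, the processed values, a replicate block and leaving out each array.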

Additional observations from a re-analysis of the deposited data

Results flagged for a closer look

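In these genes the change on resistance differed between the 2 lines of a table, by a test of the difference itself (limma, adjusted over the 14077 genes). Values are the log2 change in the first line minus that in the second, and 18 of 22 genes with values on every array were called between SCC-25 and Cal-27. The change in SCC-25 was above that in Cal-27 for OASL (4.38), IFI27 (3.18), IFI6 (2.07), IFI44L (1.73), OAS2 (1.50) and HERC5 (1.25). The same direction was found for IRF9 (1.06), IFI44 (0.90), ZC3HAV1 (0.89), RIGI (0.83) and DDX60 (0.74). The same direction was found for IFIH1 (0.56). The fitted differences of MX2 (1.08) and MX1 (0.37) rest on their fall in Cal-27 alone, since no SCC-25 array detected either gene and no SCC-25 change was measured. The change in SCC-25 was below that in Cal-27 for LAMP3 (-2.25), CXCL10 (-1.21), PARP12 (-0.79) and IRF7 (-0.46).

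Between FaDu and SQ20B, 21 of the 22 genes were called. CXCL10 alone among them had the higher change in FaDu. The change in FaDu was above that in SQ20B for CXCL10 (0.65). The change in FaDu was below that in SQ20B for IFI44 (-4.96), IFI44L (-4.06), IFI27 (-3.96), HERC5 (-3.89), OASL (-3.15) and OAS2 (-3.13). The same direction was found for LAMP3 (-3.06), MX1 (-2.96), DDX60 (-2.95), SAMD9L (-2.82), RIGI (-2.75) and MX2 (-2.25). The same direction was found for IFI6 (-2.11), IRF7 (-1.80), IRF9 (-1.59), SP110 (-1.38), PARP12 (-1.33) and IFIH1 (-1.31). The same direction was found for IFITM1 (-1.31) and ZC3HAV1 (-0.85). Fitted values of genes not detected in a group, such as IFI27, IFI44L and MX2 in sensitive SQ20B, are no bound.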

How the results depend on the processing

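Counts of called members kept within 1.5 times of the reported counts under the alternatives run, apart from those given here. With at least a 2-fold change asked, 0 members rose and 1 fell in SCC-25, 2 rose and 13 fell in Cal-27, and 18 rose and 2 fell in FaDu. Under that limit 13 members were higher and 2 lower by the difference of changes, SCC-25 minus Cal-27, and 1 was higher for FaDu minus SQ20B. Of all 14077 genes, 588 were higher and 745 lower for SCC-25 minus Cal-27, and 541 were higher for FaDu minus SQ20B. The parental comparison then gave 8 higher and 8 lower for SCC-25 against Cal-27 and 0 lower for FaDu against SQ20B. Of all genes it gave 1283 and 1102, and 1135 lower. The resistant comparison gave 14 and 4 for SCC-25 against Cal-27 and 4 and 12 for FaDu against SQ20B. Of all genes it gave 1471 and 1432, and 1299 and 1478. Pathway genes under the 2-fold limit were 0 and 0 in SCC-25, 1 and 0 in Cal-27, 0 and 1 in FaDu, and 3 and 1 in SQ20B. The count higher in FaDu than in SQ20B by difference of changes was 1 without background correction and 0 with the authors' processed values. Pathway genes higher in SCC-25 numbered 4 with an offset of 50 or the strict detection filter, and 1 with the mean of a gene's probes or with only the groups compared. Pathway genes higher in FaDu numbered 5 with median scaling. ZC3HAV1 in SQ20B reversed to -0.15 with the mean of its probes (adjusted p = 0.164). The cause was not tested in these cases, except that the 2-fold limit removes small changes by construction. Some called log2 changes of single genes moved by over 1.5 times with their direction kept. Without background correction these were CXCL10 in Cal-27 (0.99) and FaDu (0.27), MX2 in Cal-27 (-0.38), FaDu (1.58) and SQ20B (3.17), OASL in Cal-27 (-2.17) and SQ20B (1.02), RIGI in Cal-27 (-0.60) and SQ20B (1.19), SAMD9L in Cal-27 (-0.24), FaDu (1.35) and SQ20B (3.24), IFI44L in Cal-27 (-0.46) and SCC-25 (0.28), and DHX58 in SQ20B (0.18). With the mean of a gene's probes they were OAS2 in Cal-27 (-0.79), FaDu (1.61) and SQ20B (3.36), OASL in SQ20B (1.06), IFI44L in Cal-27 (-0.56) and SCC-25 (0.33), and ZC3HAV1 in Cal-27 (-1.31) and FaDu (-1.05). An offset of 50 gave 0.43 for CXCL10 in FaDu, 0.15 for DHX58 in SQ20B (no longer called), -0.60 for IFI44L and -0.61 for MX2 in Cal-27, and median scaling gave -0.52 for IFI44 in FaDu. The authors' processed values gave 1.86 for CXCL10 in FaDu, 2.16 for DHX58 in SQ20B, 12.4 for IFI27 in SQ20B, and -5.10 and 11.1 for IFI44L in Cal-27 and SQ20B. Leaving out 1 array gave 11 to 15 higher and 4 to 5 lower in SCC-25, 7 and 24 to 25 in Cal-27, 28 to 29 and 5 to 8 in FaDu, and 43 to 45 and 0 in SQ20B. It gave 1 to 3 pathway genes higher in SCC-25, and 3 to 6 members lower for the difference of changes between the tongue lines.

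Samples with the same replicate number did not deviate together (r = -0.07 to 0.07), so the numbers were not taken as pairs. A replicate block moved no count of calls by over 1.5 times. Under the block RIGI in SCC-25 was called (-0.31, adjusted p = 0.039) and SAMD9L in Cal-27 was not (-0.37, adjusted p = 0.051). A chip block was not run, since the headers and labels name no chip, and fits of only the groups compared give no difference of changes. In the processed table values under 1 were set to 1. Genes not detected in a group, such as IFI27 in sensitive SQ20B, have a bound only, and it holds for the main background correction.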
